A study of Homo sapiens with 8 samples.

Results

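MT-TL1 and MT-TL2 are the genes of the 2 leucine tRNAs that human mitochondrial DNA (mtDNA) encodes. They were chosen by name, and are 2 of the 22 mitochondrial tRNA genes, 2 of the 37 mtDNA genes and 2 of 15190 genes with a miCLIP read in the series. All 8 samples of the series came from HEK293 cells, a long-established line from human embryonic kidney. In 3 samples myc-tagged NSun3, and in 3 others myc-tagged NSun6, was introduced by transfection, and cells were taken 24 h later. No library without a tagged enzyme was analysed here, so each enzyme is read against the other. In miCLIP a catalytic mutant of the methyltransferase stays linked to the cytosine it attacks, and the complex is isolated through the tag. Reverse transcription stops at or beside that cytosine, so read starts are meant to mark contact points. Many read starts here lay over 2 nt from any cytosine, as given below, and for those a contact is not shown. The mutation is described for NSun3, and the labels name the constructs without it. The other 2 samples are bisulfite sequencing of poly(A) RNA from HEK293 cells without a stated transfection, in 1 pooled table. Nothing says that the replicates came from separate cultures, so p-values measure only the spread between these samples.

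Mitochondrial tRNAs are cut out of long transcripts of both mtDNA strands. RNase P frees the 5′ end, ELAC2 frees the 3′ end, and TRNT1 adds the CCA tail that carries the amino acid. MT-TL1 reads the UUR leucine codons and lies between the large ribosomal RNA gene MT-RNR2 and the complex I gene MT-ND1. MT-TL2 reads the CUN leucine codons and lies between the serine tRNA gene MT-TS2 and the complex I gene MT-ND5. Both tRNAs fold into an acceptor stem, a D arm, an anticodon arm, a variable region and a T arm. NSun3 is known as the enzyme that methylates the wobble cytosine of mitochondrial tRNA-Met, and NSun6 as one that methylates the acceptor end of cytoplasmic tRNAs.

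MT-TL1 (ENSG00000209082.1) has 75 bases and spans chrM:3231-3305 on the plus strand in the numbering of the deposited hg19 files, which is 3230 to 3304 in the GRCh37 GENCODE annotation. MT-TL2 (ENSG00000210191.1) has 71 bases and spans chrM:12267-12337 on the plus strand, or 12266 to 12336 in GENCODE. Each gene is 1 exon of a noncoding RNA. Most miCLIP reads started in the 5′ stretch of each gene, 86.0% to 96.3% of a library's reads for MT-TL1 and 100% for MT-TL2, so it is shown here from the GENCODE transcripts with the cytosines in capitals.
MT-TL1, bases 1 to 28: gttaagatggCagagCCCggtaatCgCa
MT-TL2, bases 1 to 25: aCttttaaaggataaCagCtatCCa
MT-TL1 has 16 cytosines, of which 6 lie in the D arm (bases 10 to 27), and MT-TL2 has 14, of which 4 lie in the D arm (bases 10 to 24). Base 11, the base with the most reads over the libraries of either enzyme, is a cytosine in MT-TL1 and a guanine in MT-TL2 with its nearest cytosine 5 bases away. CTCCA, a motif searched here on the RNA strand only, occurs in 1 of 22 mitochondrial tRNA genes (4.55%), and that gene is MT-TL2. It lies in the T arm, which is shown because no read began there.
MT-TL2, bases 47 to 63, with CTCCA in capitals: tttggtgcaaCTCCAaa

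The NSun3 libraries held 47352 to 138921 reads and the NSun6 libraries 305392 to 467586. mtDNA took 24.4% to 37.6% of reads with NSun3 and 8.05% to 9.56% with NSun6. Reads in NSUN6 exons, which would include any from the construct, numbered 323, 428 and 323 with NSun6 and 0 in all NSun3 libraries. Reads in NSUN3 exons numbered 32, 19 and 0 in NSun3 replicates 1, 2 and 3, and 0, 0 and 8 in the NSun6 libraries. The library labelled NSun3 replicate 3 thus had no read of its own enzyme's gene, and the shares of mtDNA reads, the fold changes per gene, the arm shares and the fold changes of the leading cytosines are also given without it.

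Both leucine tRNAs took a smaller share of mtDNA reads with NSun3 than with NSun6. MT-TL1 held 2516, 462 and 642 reads in the NSun3 libraries and 9500, 10663 and 8309 in the NSun6 libraries. As a share of mtDNA reads, which removes the difference in mtDNA content between the enzymes, these are 4.82%, 2.53% and 5.56% against 30.7%, 28.3% and 30.3%. The groups did not overlap, and the mean share was 4.30% ± 1.58 (SD, n = 3) with NSun3 and 29.8% ± 1.27 (SD, n = 3) with NSun6, a difference of -25.5 percentage points. MT-TL1 was the gene with the most reads of all 37 mtDNA genes with NSun6, and ranked 8 with NSun3.

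MT-TL2 held 286, 31 and 78 reads with NSun3 and 1893, 2471 and 1601 with NSun6. Its share of mtDNA reads was 0.547%, 0.170% and 0.676% against 6.12%, 6.57% and 5.84%. The groups again did not overlap, with means of 0.464% ± 0.263 and 6.17% ± 0.365 (SD, n = 3 each). MT-TL2 ranked 4 of 37 with NSun6 and 21 with NSun3. In an exact two-sided permutation test both differences had p = 0.10, the smallest that 3 against 3 libraries allow, and 0.168 after Benjamini-Hochberg adjustment over 37 genes. Of all mtDNA genes, 9 of 37 (24.3%) were lower in every NSun3 library than in every NSun6 library and 13 of 37 (35.1%) were higher, so groups that do not overlap were common. Without NSun3 replicate 3 the differences were -26.1 points for MT-TL1 and -5.82 points for MT-TL2. With each mtDNA position that had a read counted once, MT-TL1 took 2.11% of positions with NSun3 and 4.04% with NSun6, and MT-TL2 0.862% and 2.01% (exact permutation test, p = 0.20 for both). This measure is limited by the length of the genes, since the NSun6 libraries already had reads at 48 to 51 bases of MT-TL1 and 24 or 25 of MT-TL2.

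**Figure D1:**
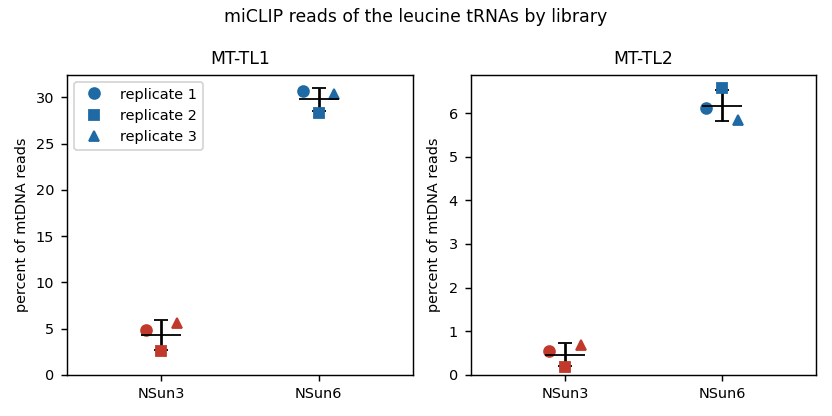
Percent of mtDNA reads in MT-TL1 (left) and MT-TL2 (right) for each library; points are libraries, bars the mean and SD of 3. All NSun3 libraries sit below all NSun6 libraries in both genes, at means of 4.30% against 29.8% and 0.464% against 6.17%.

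Among reads of the 22 mitochondrial tRNA genes, MT-TL1 took 62.8% ± 1.94 with NSun6 and 11.2% ± 4.58 with NSun3, and MT-TL2 took 13.03% ± 0.983 and 1.22% ± 0.725 (SD, n = 3 each). With NSun6 the leucine tRNAs were thus the first and second of the 22 by reads, while with NSun3 they ranked 4 and 8. MT-TL1 gave 8.80, 14.9 and 8.23 reads for each MT-TL2 read with NSun3 and 5.02, 4.32 and 5.19 with NSun6, with p = 0.10 in the same exact test and only 31 to 286 MT-TL2 reads in the NSun3 libraries.

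Scaled to all reads of the library (RPM, reads for each 1000000 reads), the differences were smaller, because mtDNA took more of the NSun3 libraries. MT-TL1 was at 18111, 8713 and 13558 RPM with NSun3 and 29327, 22804 and 27208 RPM with NSun6. MT-TL2 was at 2059, 585 and 1647 RPM against 5844, 5285 and 5242 RPM. A lower read number cannot be separated into fewer contacts per tRNA and fewer tRNA molecules, since no matched RNA level was used here. In edgeR's quasi-likelihood test with library sizes of all reads and Benjamini-Hochberg adjustment over 1731 genes, the log2 fold change (NSun3 over NSun6) of MT-TL1 was -0.97 ± 0.41 (SE, adjusted p = 0.0430) and MT-TL2 of -1.92 ± 0.44 (SE, adjusted p = 0.00188). Of the genes tested, 90.9% were called lower and 4.1% higher with NSun3, with a median of -7.48, while with no filter on low counts 3489 of 15190 genes were called and the median was -3.39, and with DESeq2 the median was -2.32, between the values of MT-TL1 and MT-TL2 there (-1.97 and -2.93).

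The MT-TL1 call held in 6 of 12 alternatives. Its log2 fold change was -2.79 with library sizes of mtDNA reads, -1.97 with DESeq2 and -1.87 with RLE size factors in edgeR (adjusted p = 1.34e-05, 3.4e-05 and 0.00176). With TMM factors it was 0.53 (edgeR, adjusted p = 0.691), with no filter on low counts the adjusted p was 0.0760, and without NSun3 replicate 2 or NSun6 replicate 1, 2 or 3 it was 0.104, 0.121, 0.0819 and 0.114. The MT-TL2 call was lost with TMM factors (log2 fold change -0.40, adjusted p = 0.688). Without NSun3 replicate 3 the log2 fold changes were -0.98 (adjusted p = 0.0203) and -1.99 (adjusted p = 0.00107).

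Of the 22 mitochondrial tRNA genes, 13 were tested. 7 were called higher with NSun3 and 3 lower, with a median log2 fold change of 1.03, and the 3 lower ones were MT-TL1, MT-TL2 and the proline tRNA gene MT-TP. The direction turned with the scaling in some: with TMM factors MT-TL1 was at 0.53 and MT-TP at 0.45, and with library sizes of mtDNA reads 2 of the 7, MT-TY and MT-TH, were at -0.039 and -0.73, while MT-TL2 stayed negative in all 12 alternatives (-3.74 to -0.40). Over the 6 libraries, with each gene centred on its mean log2(RPM + 1), the genes nearest to MT-TL1 by Euclidean distance were the complex I gene MT-ND3 (0.400), MT-TP (0.971) and the phenylalanine tRNA gene MT-TF (1.31). The measure is weak: 7 tRNA genes with no read in any library (distance 1.49) were nearer to MT-TL1 than MT-TL2 was, at rank 11. Those nearest to MT-TL2 were the complex I gene MT-ND4L (1.498), then MT-TL1, and MT-ND3 (1.81).

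Nuclear genes for the processing and modification of RNA, mainly of mitochondrial RNA, were too sparse to compare. Of a list of 26 genes, most of them for tRNA cutting, CCA addition, modification or leucine charging and a few for other steps of mitochondrial RNA handling (the termination factor MTERF1, the mRNA stability factors LRPPRC and SLIRP, and the rRNA methyltransferases MRM1 and NSUN4), 24 had a read with NSun6 and 4 with NSun3. Only NSUN6 itself, described above for cytoplasmic tRNAs and with reads that would include any from the construct, was deep enough to be tested.

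Read starts are given at the deposited positions. Whether such a position is the first base of the read or the base before it is not given in the sources used here, so every base named may be off by 1 nt. The bases described are those with at least 5% of the gene's reads in the mean of either enzyme, so how a base chosen through 1 enzyme stands in the other is a description without a test. With NSun6, MT-TL1 reads began mostly at base 11, in the 5′ strand of the D stem, and at base 2, in the acceptor stem. Base 11 took 52.3%, 36.96% and 46.05% of the gene's reads with NSun6 and 51.2%, 13.2% and 80.8% with NSun3, so the groups overlapped. Base 2 took 20.7%, 25.6% and 23.3% with NSun6, and 3.34%, 0% and 0% with NSun3.

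In the NSun3 libraries a further set of MT-TL1 reads began in the D loop, at bases 18 and 19. Base 18 took 8.07%, 11.3% and 11.7% of reads with NSun3 and 0.368%, 0.291% and 0.0722% with NSun6. Base 19 took 19.3%, 29.4% and 3.43% with NSun3 and 0.253%, 0.244% and 0.229% with NSun6. Both bases were chosen through their NSun3 shares. Base 13, in the D stem, took 17.7% of reads in NSun3 replicate 2 but 0.676% and 0% in the other two, and 1.85% to 3.95% with NSun6.

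**Figure D2:**
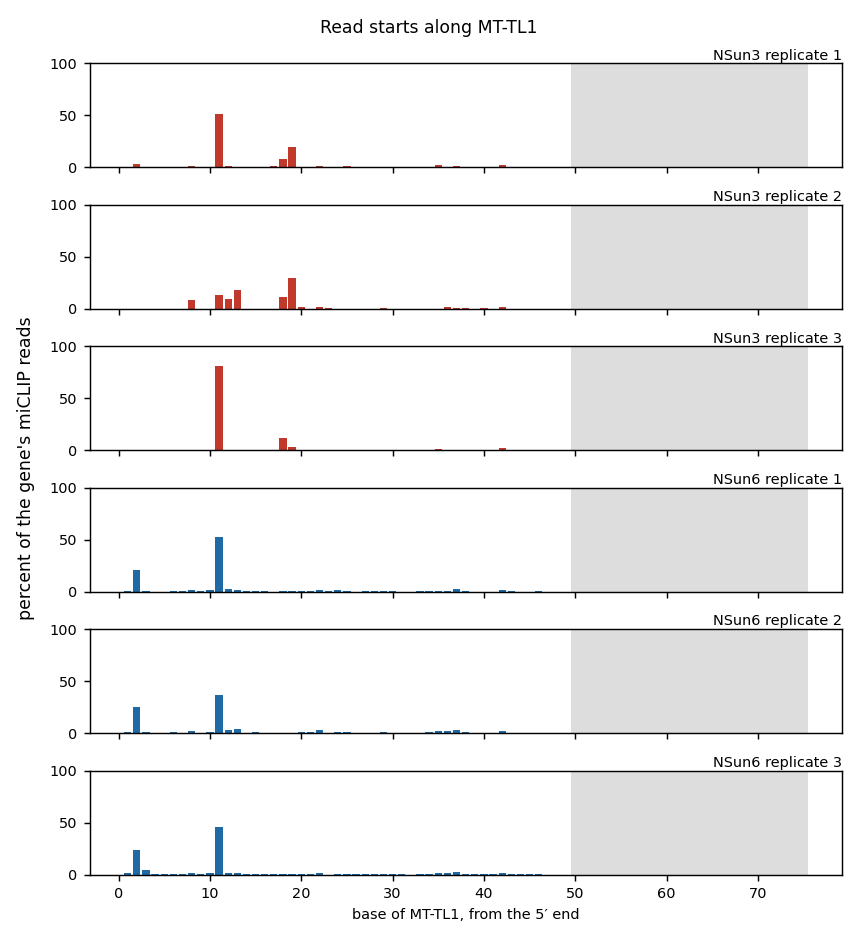
Read starts along MT-TL1: the x axis is the base from the 5′ end and the y axis the percent of the gene's miCLIP reads in each of the 6 libraries. Grey marks the 26 bases from which no read ending inside the gene is unique in the genome. Base 2 stands out in the NSun6 libraries, bases 18 and 19 in the NSun3 libraries.

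MT-TL2 showed the same leading bases with NSun6. Base 11 took 45.2%, 38.9% and 37.7% of its reads with NSun6 and 17.1%, 77.4% and 71.8% with NSun3, on 49, 24 and 56 NSun3 reads. Base 2, a cytosine, took 31.3%, 34.1% and 31.5% with NSun6 and 21.3%, 0% and 0% with NSun3. Base 12 took 5.65%, 3.40% and 9.87% with NSun6 and 8.74%, 0% and 2.56% with NSun3. In the D loop, base 17 took 32.5%, 9.68% and 16.7% of reads with NSun3, on 93, 3 and 13 reads, and 0.845%, 1.21% and 0.312% with NSun6. Base 17, next to the cytosine at base 16, was chosen through its NSun3 share, which rests on few reads in replicates 2 and 3.

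**Figure D3:**
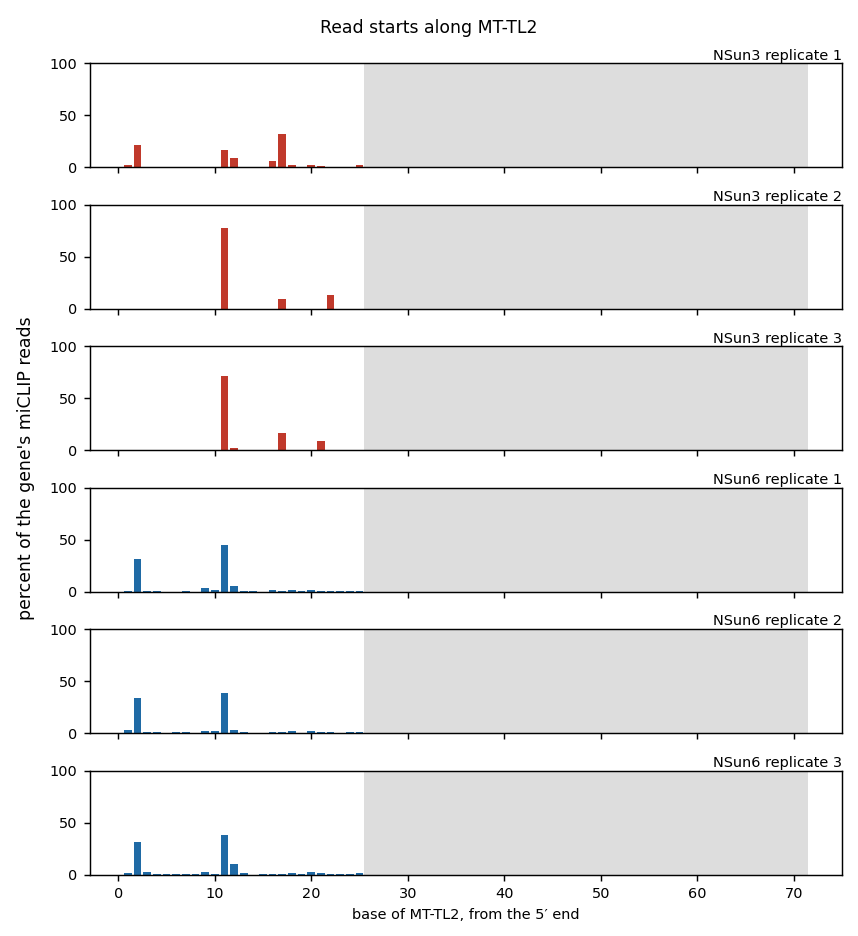
Read starts along MT-TL2, as percent of the gene's miCLIP reads at each base from the 5′ end in each of the 6 libraries, with grey for the 46 bases from which no read ending inside the gene is unique. All reads began in bases 1 to 25, and base 17 is raised in the NSun3 libraries.

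By arm, the D arm led in both tRNAs with both enzymes. It took 85.7%, 85.7% and 96.0% of MT-TL1 reads with NSun3 and 64.9%, 53.5% and 56.01% with NSun6. For MT-TL2 it took 73.4%, 100% and 100% with NSun3 and 61.5%, 56.3% and 57.8% with NSun6. The differences were 30.998 and 32.6 percentage points, and 27.6 and 28.2 without NSun3 replicate 3. With each position counted once they were 9.28 and 31.9 points. A read that ends inside the gene can be unique only from 25 bases of MT-TL2, and the D arm is 15 of them. In MT-TL1 the D arm is 18 of 49 such bases. With NSun6 the D arm share of MT-TL2 was thus close to its share of these bases, so its lead there does not show a preference. Within the D arm, the loop took 30.4% ± 15.2 of MT-TL1 reads with NSun3 and 4.70% ± 1.57 with NSun6, and 23.5% ± 18.2 and 5.78% ± 1.16 of MT-TL2 reads (SD, n = 3 each). For MT-TL2 the NSun3 loop shares were 44.1%, 9.68% and 16.7%, on 126, 3 and 13 reads, and their mean without replicate 1 was 13.2%. Without NSun3 replicate 3 the mean loop shares were 38.1% for MT-TL1 and 26.9% for MT-TL2. The 5′ strand of the D stem, which holds base 11, overlapped between the enzymes in both tRNAs. The 5′ strand of the acceptor stem took 27.6% ± 4.44 of MT-TL1 reads with NSun6 and 1.35% ± 2.34 with NSun3. The anticodon arm, read only in MT-TL1, took 11.1% ± 1.91 with NSun6 and 5.92% ± 2.23 with NSun3 (SD, n = 3 each).

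Read starts at bases 2 and 11 also occurred in other mitochondrial tRNAs, a comparison made after their values had been seen. Reads were summed over the libraries of an enzyme. Of 12 mitochondrial tRNA genes with at least 100 NSun6 reads, base 11 took at least 5% of reads in 5 and base 2 in 5. Both counts include MT-TL1 and MT-TL2. The other genes were MT-TG, MT-TP and the threonine tRNA gene MT-TT at base 11. At base 2 they were MT-TG, MT-TS2 and the cysteine tRNA gene MT-TC. With NSun3 the counts were 4 and 3 of 9 genes, with both leucine tRNAs among those at base 11. MT-TL2 was among those at base 2, through replicate 1 alone. Base 2 took 28.1% of the NSun3 reads of MT-TS2 and 17.6% of those of MT-TG. MT-TG, the glycine tRNA gene, had 38.5% of its NSun6 reads at base 11 and 26.6% at base 2. In 4 of the 5 genes with this NSun6 share at base 11, no cytosine lay within 2 nt of it, and MT-TL1 was the exception.

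The 3′ parts of both tRNAs were nearly out of reach of the alignment. The authors kept reads of at least 18 nt with a single best place in the genome. The nuclear genome holds 14 stretches that align to at least 90% of MT-TL1, with up to 93.3% identity, and 31 that align to MT-TL2, with up to 97.2% identity. A read that ends inside the gene can be unique from 49 of the 75 bases of MT-TL1, bases 1 to 49, and reads were found at all 49. From the other 26 bases of MT-TL1, 3 had reads. In MT-TL2 this holds for bases 1 to 25, reads were found at all 25, and none of the other 46 bases had any. That no read began in the anticodon or T arm of MT-TL2 therefore says nothing about contact there.

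Few reads started just outside the genes. From which of these outside bases a read can be unique was not examined, so low numbers there do not by themselves mark a boundary. In the 30 nt before MT-TL1 the 6 libraries held 0 to 15 reads, against 1937 to 2726 at base 2 with NSun6. In the 30 nt after MT-TL1, the start of MT-ND1, there were 65, 13 and 0 reads with NSun3 and 0, 2 and 1 with NSun6. Around MT-TL2, the 30 nt before it held 0 to 3 reads, and the 30 nt after it, the start of MT-ND5, held 20, 0 and 0 with NSun3 and 0, 1 and 2 with NSun6.

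Each read was given to the closest cytosine within 2 nt. On this basis MT-TL1 had 8 high-confidence cytosines with NSun6 and 6 with NSun3, and MT-TL2 had 5 and 2. A high-confidence cytosine has over 50 RPM in at least 2 of 3 replicates. All those of NSun3 were also found with NSun6. Over the transcriptome, 2.18% of cytosines with an NSun6 read and 8.87% of those with an NSun3 read passed this rule. A single read was worth 18.9 and 21.1 RPM in NSun3 replicates 2 and 3, so 3 reads passed there, and the MT-TL1 cytosine at base 27 passed with 11, 3 and 0 reads.

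The cytosine at base 18 of MT-TL1, in the D loop, was higher with NSun3. It held 5032, 3678 and 2048 RPM with NSun3 and 265, 265 and 144 RPM with NSun6, with no overlap. Its log2 fold change was 3.99 ± 0.53 (SE, edgeR, adjusted p = 0.000385 over 1775 cytosines), and 4.27 without NSun3 replicate 3 (adjusted p = 0.000293). It was called under 11 of 12 alternatives and not by DESeq2 (2.49, adjusted p = 0.129). It was the only cytosine of either tRNA called higher with NSun3, where 15.9% of all tested cytosines were called higher and 72.5% lower.

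The cytosine at base 11 of MT-TL1 took the most reads over the libraries of each enzyme and did not pass the test. In NSun3 replicate 2, base 18 held more (3678 RPM). Base 11 held 9747, 3508 and 10961 RPM with NSun3 and 17084, 10325 and 13835 RPM with NSun6. Its edgeR log2 fold change was -0.77 ± 0.67 (SE) with an adjusted p of 0.304, and -1.05 without NSun3 replicate 3 (adjusted p = 0.139). Of the 30 cytosines of both tRNAs, 14 passed the filter on low counts, and 8 of these passed through their NSun6 reads alone. This favours a lower value with NSun3, so their calls are descriptions. At bases 25 and 27 of MT-TL1 and base 19 of MT-TL2, 2 NSun3 libraries were also over the limit of the filter. Those of the 8 in MT-TL1 were bases 16, 25, 27 and 46, which edgeR called lower with NSun3. NSun3 reads there were 9, 1 and 0 at base 16 and 38, 4 and 0 at base 25. They were 11, 3 and 0 at base 27 and 18, 0 and 0 at base 46. NSun3 replicate 1 held most of them, and without it the log2 fold change went from -3.14 to -4.91 at base 16, from -2.24 to -3.94 at base 25 and from -2.34 to -9.10 at base 46, where the remaining NSun3 libraries are at 0 and the value depends on the prior count. The calls of bases 25 and 46 were lost without NSun3 replicate 2 (edgeR, adjusted p = 0.0800 and 0.0603) and without NSun6 replicate 1, 2 or 3 (0.124 to 0.172). DESeq2 did not call them either (adjusted p = 0.0711 and 0.0769). That of base 27 was lost without NSun6 replicate 1 or 3 (edgeR, adjusted p = 0.0558 and 0.0517). In the edgeR fit with replicate numbers bases 16, 25, 27 and 46 were not called (adjusted p = 0.0651, 0.0832, 0.118 and 0.0852). Base 34 lies in the anticodon arm and, as bases are counted along the gene, is not the wobble base. It held 482, 151 and 169 RPM with NSun3 and 886, 1125 and 1028 RPM with NSun6. It passed the filter with both enzymes and was called lower (log2 fold change -1.88 ± 0.50, SE, edgeR, adjusted p = 0.00720), in 8 of 12 alternatives. The call was lost with no filter, with DESeq2 and with reads assigned within 1 nt (adjusted p = 0.0773, 0.0577 and 0.0925), beside the fit with replicate numbers. Its log2 fold change was -2.66 without NSun3 replicate 1 and -1.62 without NSun3 replicate 3 (adjusted p = 0.0212). Base 41, in the same arm, held 489, 189 and 338 RPM against 543, 569 and 504 RPM, and did not pass the test (edgeR, adjusted p = 0.155).

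In MT-TL2, the cytosine at base 2 held 489, 0 and 0 RPM with NSun3 and 1957, 2019 and 1893 RPM with NSun6. It too passed the filter through NSun6 alone, so its call as lower (log2 fold change -3.44, edgeR, adjusted p = 0.0377) is a description. The call was lost without NSun6 replicate 1, 2 or 3 (edgeR, adjusted p = 0.140, 0.128 and 0.135). Its log2 fold change was -2.87 without NSun3 replicate 3 (edgeR, adjusted p = 0.0272). It became -11.87 without NSun3 replicate 1, the only NSun3 library with a read there, a value that depends on the prior count. The cytosine at base 16, in the D loop, held 806, 56.6 and 275 RPM with NSun3 and 154, 135 and 78.6 RPM with NSun6. The groups overlapped. The edgeR log2 fold change was 1.67 ± 0.78 (SE) with an adjusted p of 0.0739, 1.89 without NSun3 replicate 3 (adjusted p = 0.0472), 2.17 without NSun3 replicate 2 (0.00948) and 0.40 without NSun3 replicate 1 (0.560). With TMM factors it was 1.97 (adjusted p = 0.0239), with RLE size factors 0.17 and with DESeq2 0.13. The other high-confidence cytosines of MT-TL2 lie in the D arm, passed the filter through NSun6 alone and were not called. Base 19 held 130, 0 and 148 RPM with NSun3 and 201, 282 and 223 RPM with NSun6. Base 23 held 14.4, 75.4 and 0 RPM against 83.4, 66.3 and 52.4 RPM, and base 24 held 64.8, 0 and 0 RPM against 58.7, 118 and 102 RPM.

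**Figure D4:**
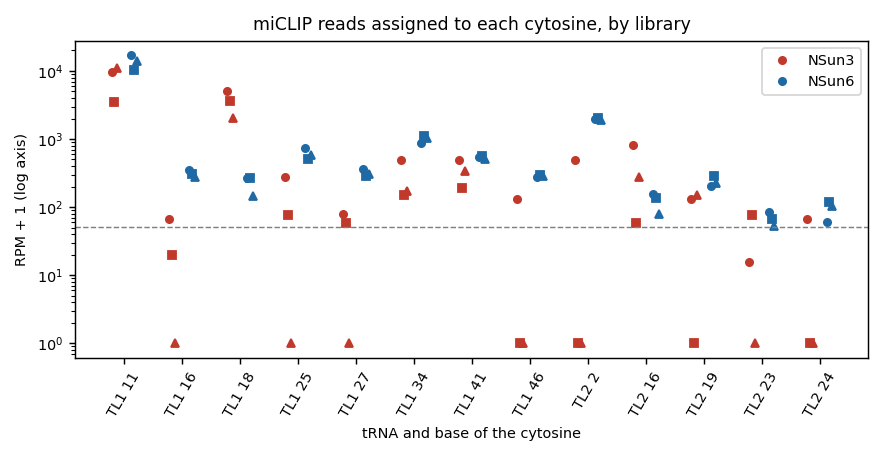
RPM plus 1 (log axis) at the 13 cytosines that were high-confidence with either enzyme, for each library; circles, squares and triangles are replicates 1, 2 and 3, and the dashed line marks the 50 RPM rule. Base 18 of MT-TL1 lies higher in the 3 NSun3 libraries than in the NSun6 libraries, and base 11 overlaps.

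Many reads could not be tied to a cytosine. In MT-TL1, 35.6% ± 5.04 of NSun6 reads and 7.07% ± 6.03 of NSun3 reads began over 2 nt from any cytosine, with NSun6 mostly at base 2. In MT-TL2 it was 54.5% ± 3.83 and 59.6% ± 28.3 (SD, n = 3 each), since base 11 has no cytosine near it.

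In bisulfite reads the well-covered part of MT-TL1 was almost fully converted. The 10 cytosines from base 11 to base 50 were covered by 130 to 175 reads, and 35 of 1594 calls (2.20%) were unconverted. The cytosine at base 18 was unconverted in 1 of 167 reads (0.599%, exact 95% binomial interval 0.0152% to 3.29%) and that at base 11 in 3 of 175 (1.71%, 0.355% to 4.93%). The highest of the 10 was base 50, at the end of the variable region, with 9 of 130 reads (6.92%, 3.21% to 12.7%). Intervals cover counting error only, and the pooled table gives no spread between samples. These libraries were made from poly(A) RNA, so the reads need not come from the tRNA after it is cut out. In fibroblast RNA enriched for mitochondria, the study reports a methylated cytosine in the variable region of this tRNA. By its tRNA position it is the last base of that region, base 50 here. The low levels here therefore do not show that the tRNA itself is unmethylated. The study saw no appreciable change of this methylation in patient fibroblasts without functional NSun3, or after NSUN3 was restored. It also reports that the methylated position lay apart from its miCLIP sites in this tRNA.

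The 6 cytosines of bases 51 to 75 had 8 to 25 reads and levels of 62.5% to 87.5%. All 6 passed the call of at least 20% with over 5 reads, as did 61.6% of covered sense cytosines in mtDNA genes. Of these mtDNA cytosines, 95.2% passed with 10 to 29 reads and 81.4% with at least 30 but under 100 reads. With at least 100 but under 1000 reads 69.6% passed, and with at least 1000 reads 3.82%. The 6 calls in MT-TL1 are thus near the background at their coverage. None of its 10 cytosines up to base 50 passed, at 130 to 175 reads. The background at such coverage came mostly from protein-coding genes. With at least 100 reads, the median unconverted level was 46.1% over 1976 sense cytosines of protein-coding genes. It was 1.18% over 18 of tRNA genes, these 10 included, and 0.110% over 559 of rRNA genes. The 10 thus lay below the background of mRNA, but this does not set them apart from tRNA or rRNA genes. The last 100 bases of MT-RNR2, just before MT-TL1, had a median coverage of 6871 reads and 0.190% unconverted, and the first 100 of MT-ND1, just after it, 74 reads and 48.0%.

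MT-TL2 could not be read. Its 14 cytosines had 1 to 6 reads each. The 3 with over 5 reads were unconverted in 3 of 6, 4 of 6 and 4 of 6, with exact intervals of 11.8% to 88.2% for the first, and 94.0% of mtDNA sense cytosines with 6 to 9 reads passed the call.

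**Figure D5:**
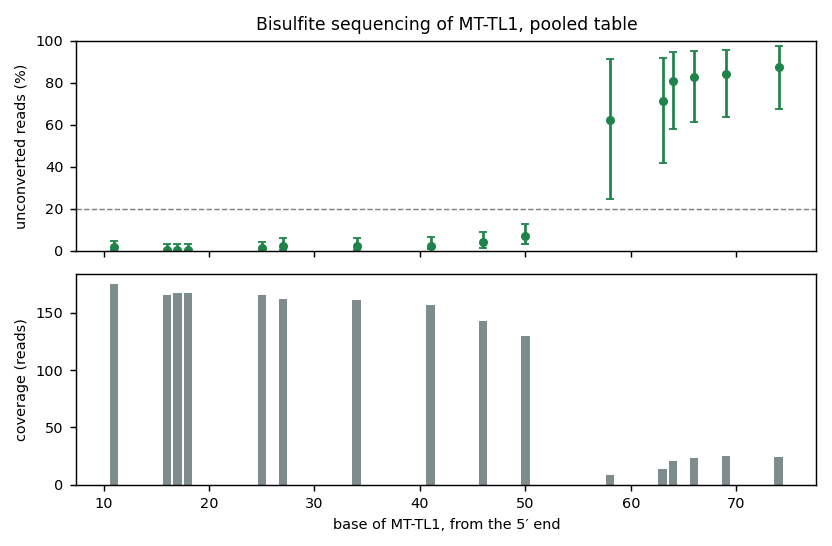
Unconverted reads (top, %, with exact 95% binomial intervals) and coverage (bottom, reads) of the 16 cytosines of MT-TL1, by base from the 5′ end; the dashed line marks 20%. Up to base 50 levels are at most 6.92% on at least 130 reads, and after it they are at least 62.5% on at most 25 reads.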

How the data were processed

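Per the study's methods, the authors collapsed PCR copies by random barcode, cut adapters with cutadapt, dropped reads under 18 nt, aligned miCLIP reads to hg19 with bowtie, keeping unique best matches, and deposited read counts per position, with no strand column. The files run over the chromosomes a second time, and the first pass was taken as plus. For bisulfite reads (Bismark, hg19) the authors deposited, for each cytosine, counts of converted and unconverted reads and their percent, in positions counted from 0. The hg19 chrM differs from the GENCODE chrM, and gene positions were shifted to fit: all 29 listed positions of MT-TL1 and 25 of MT-TL2 then fell on C or G. Arm limits were set by hand.

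Shares were compared by exact permutation tests (scipy 1.17.1), and counts by edgeR 4.0.16 (filterByExpr, library size of all reads, no scaling). The SE given with edgeR was derived from its test, as the absolute log2 fold change over the square root of the F value. The edgeR script was tested on simulated counts. DESeq2 1.42.0 was run on the deposited counts as an alternative. Nuclear copies were found with BLAST 2.17.0. Named were both genes, every base with at least 5% of the gene's reads, and every high-confidence or called cytosine. The genes, lists and tests were chosen with earlier results of these data known. Depth was 47352 to 467586 reads per miCLIP library.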

Additional observations from a re-analysis of the deposited data

Results flagged for a closer look

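The strand opposite to MT-TL2 carried far more bisulfite reads than MT-TL2 itself, in data that no comparison above uses. Its 11 cytosines were covered by 20944 to 38188 reads, the highest being opposite base 10, with 0.0498% to 0.205% unconverted, against 1 to 6 reads on the sense strand. The strand opposite to MT-TL1 had 6 to 9 reads per cytosine.

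In the miCLIP libraries, 12 reads over all 6 began on the strand opposite to MT-TL2, of which 6 were in NSun3 replicate 1 and 6 in NSun6 replicate 2. No group of samples was large enough for a search for libraries that stand apart from their group.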

How the results depend on the processing

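The share of mtDNA reads and the D arm share kept their direction in both tRNAs under all alternatives run. With each position counted once the share difference was -1.93 points (MT-TL1) and -1.15 points (MT-TL2), and the D arm difference 9.28 and 31.9 points. The share difference was -26.2 to -24.6 points (MT-TL1) and -5.88 to -5.51 points (MT-TL2) with 1 library left out, and the D arm difference 27.6 to 34.4 and 28.2 to 41.4 points. The MT-TL1 log2 fold change was 0.53 with TMM factors, -0.97 with no filter, -2.79 with library sizes of mtDNA reads, -1.97 with DESeq2, -1.87 with RLE size factors and -1.25 to -0.74 with 1 library left out. That of MT-TL2 was -0.40 with TMM factors and -2.30 to -1.55 with 1 library left out. Genes called numbered 1644 in the main test, 3489 with no filter, 3261 by DESeq2 and 1274 to 2829 with 1 library left out. Cytosines called numbered 3213 with no filter and 1328 to 2836 with 1 left out. Of all 1775 tested cytosines 1569 were called. Of 14 tested leucine tRNA cytosines 7 were called, 5 of which passed the filter through NSun6 reads alone, and 12 were called with RLE size factors, 3 by DESeq2 and 3 to 10 with 1 left out. With the replicate block 2 were called (base 34 of MT-TL1 not, edgeR, adjusted p = 0.170), and the log2 fold changes per gene were -1.03 and -2.10. Same-numbered libraries of the enzymes showed little correlation across genes (r = 0.0284, 0.0651 and 0.00846). Most of these genes were far lower with NSun3 (median log2 fold change -7.48), so this check cannot tell whether the replicate numbers pair the samples. High-confidence cytosines of MT-TL2 numbered 2 with NSun3 and 1 if required in all 3 replicates, within 1 nt, or directly 5′ of the read start, and 5 with NSun6 but 2 directly 5′ of the read start. Cytosines that passed the bisulfite call, near the background as given above, numbered 6 in MT-TL1 and 0 at 100 reads or more. In MT-TL2 they numbered 3, 0 at 20 or 100 reads or more and 8 at 1 read or more. The causes were not tested, apart from the fewer sites left by higher coverage limits. Depth limits the NSun3 values of MT-TL2 (31 to 286 reads) and all its bisulfite levels.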
